A study of Homo sapiens with 6 samples.

Results

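The Polo-like kinases are a small family of serine/threonine kinases, and 4 members were followed here: PLK1, PLK2, PLK3 and PLK4. They were chosen by family membership, matching each symbol to the Ensembl identifier that the count tables carry. The rule uses no measured value, although the family was picked with earlier results of these data known. All 4 were found among 60671 identifiers, and 4 of 4 passed the filter on low counts that left 17649 genes for testing. A further family member, PLK5, had 4 counts in DMSO replicate 2 and 0 in each of the other 5 libraries, so it was not tested.

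RNA sequencing had been done on wild-type EndoC-βH1, an established human pancreatic β cell line that secretes insulin, in 6 libraries. The comparison was between 3 libraries of cells given the vehicle DMSO and 3 libraries of cells given AZD7762 at 1 µM. AZD7762 is an inhibitor of the checkpoint kinases CHEK1 and CHEK2. The study's kinase profiling at 1 µM also found most of its other reported kinase targets inhibited. Per the protocol shared by both groups, a 1 h starvation in 0.5 mM glucose preceded a 1 h stimulation in either 0.5 or 20 mM glucose, and which of these applied to each library was not stated. All libraries came from this single immortalised line and the labels do not say that the replicates were separate cultures, while the study's methods describe in vitro replicates in general as independent. If these were not, the p-values measure only the spread between these samples, which may be technical.

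PLK1, PLK2 and PLK3 dock onto phosphorylated partners through C-terminal polo boxes, and the family is best known from cell division. PLK1 drives mitotic entry, spindle assembly and cytokinesis, and is switched on by Aurora A with its cofactor Bora. PLK4 is the kinase that starts centriole duplication. PLK2 and PLK3 are instead known as genes whose transcripts answer quickly to growth factors, neuronal activity or stress, and both are described as targets of p53. Checkpoint kinases act upstream of the mitotic machinery by holding back progress through the cell cycle when DNA is damaged.

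The promoters of the 4 genes are shown because they carry different letters ahead of the start site in the cell cycle member PLK1 and the signal-responsive member PLK2. Each line holds the 250 bases before the gene start in the RefSeq annotation of GRCh38.p14, written 5′ to 3′ on the strand of the gene, with matches to the searched motifs in capitals.
PLK1, chr16:23678639-23678888, plus strand: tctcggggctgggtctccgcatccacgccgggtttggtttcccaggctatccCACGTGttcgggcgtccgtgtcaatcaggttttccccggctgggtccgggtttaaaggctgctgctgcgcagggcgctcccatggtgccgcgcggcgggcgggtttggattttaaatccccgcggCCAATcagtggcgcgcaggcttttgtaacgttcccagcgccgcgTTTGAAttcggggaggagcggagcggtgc
PLK2, chr5:58460087-58460336, minus strand: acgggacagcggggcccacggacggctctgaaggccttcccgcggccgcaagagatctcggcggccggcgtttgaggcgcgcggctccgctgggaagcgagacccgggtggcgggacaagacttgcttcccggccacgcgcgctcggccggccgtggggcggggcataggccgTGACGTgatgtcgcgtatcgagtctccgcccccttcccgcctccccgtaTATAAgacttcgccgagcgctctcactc
PLK3, chr1:44800127-44800376, plus strand: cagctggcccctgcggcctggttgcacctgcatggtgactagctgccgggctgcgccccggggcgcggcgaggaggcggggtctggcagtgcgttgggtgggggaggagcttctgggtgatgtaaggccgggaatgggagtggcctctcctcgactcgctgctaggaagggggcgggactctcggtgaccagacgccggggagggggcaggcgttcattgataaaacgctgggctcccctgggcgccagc
PLK4, chr4:127880643-127880892, plus strand: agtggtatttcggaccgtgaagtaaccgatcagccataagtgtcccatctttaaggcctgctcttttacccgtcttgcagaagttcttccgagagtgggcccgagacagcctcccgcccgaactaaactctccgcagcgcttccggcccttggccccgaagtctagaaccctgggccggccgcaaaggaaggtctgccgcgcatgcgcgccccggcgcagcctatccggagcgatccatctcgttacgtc

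The motifs were searched on both strands, and no 2 matches overlapped. In the PLK1 window, TTTGAA (the core of the cell cycle genes homology region) lay at positions -29 to -24 from the gene start, CCAAT at -73 to -69 and the E-box CACGTG at -198 to -193. In the PLK2 window, TGACGT (the core of the cAMP response element) lay at -77 to -72 and TATAA at -28 to -24. The PLK3 and PLK4 windows held none of these letters, and none of the 4 held a CArG box, the serum response element motif. PLK4 had 3 promoter windows on record, and the matches given here are for the window at the gene start only. Among 35116 promoter windows of the same length, TTTGAA was present in 13.3%, CCAAT in 32.0%, TGACGT in 7.10%, CACGTG in 6.35%, TATAA in 18.9% and a CArG box in 1.16%. The GC content of the windows was 64.8% for PLK1, 71.2% for PLK2, 70.0% for PLK3 and 60.8% for PLK4.

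Library totals ran from 20486391 to 29402440 counts. Levels of tested genes are given as CPM, the count of a gene per 1000000 counts of scaled library size. Taken as the floor of detection, 3 counts corresponded to 0.102 to 0.146 CPM. This floor and the marker levels below used library totals without scaling factors. All 12 β cell markers were above 3 counts in every library, and their summed level ran from 6342 to 7458 CPM with DMSO and from 6844 to 7455 CPM with AZD7762. The largest part of this sum was CHGA, at 3411 to 3992 CPM over all libraries. Insulin was at 1026 to 1694 CPM, and MAFA ranged from 15.3 to 44.2 CPM. Of the markers of other cell types, the summed δ cell pair (somatostatin and HHEX) was at 221 to 251 CPM with DMSO and 256 to 280 CPM with AZD7762, and the acinar list, in which CPA1 alone was detected, at 21.2 to 22.7 and 24.3 to 27.1 CPM, so both stood apart between the groups. The sums of the α cell markers (68.7 to 86.2 and 69.9 to 78.5 CPM, mostly IRX2, with glucagon at 1.10 to 1.91), the ductal markers (24.6 to 30.6 and 25.1 to 28.5, mostly KRT19) and the mesenchymal markers (11.9 to 17.6 and 12.0 to 15.2, mostly COL1A1) overlapped, and PPY and the endothelial and leukocyte markers were at or near 0. The part of these markers in the results for the kinases was not tested. In the edgeR quasi-likelihood test, 125 of 17649 genes passed an adjusted p of 0.05 (0.708%), 63 higher (0.357%) and 62 lower (0.351%) with AZD7762, a split that became 59 and 90 when library totals were used without scaling factors. Groups did not overlap for 15.0% of all genes, 9.68% had an unadjusted p under 0.05, and 52.4% had a log2 fold change above 0. In bulk RNA, fewer cells of one kind and less RNA per cell cannot be told apart.

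With the family taken as a whole, PLK1 was at a higher level in every AZD7762 library than in any DMSO library, and PLK2, PLK3 and PLK4 were each at a lower level. By direction alone, the cell cycle members lay on opposite sides of no change, while the signal-responsive members lay on the same side. The changes of PLK2 and PLK4 were small: 38.0% of genes had a larger change than PLK2 and 22.5% a larger one than PLK4. In 4 of 4 members the DMSO and AZD7762 libraries did not overlap, against 15.0% of all genes, and 3 of 4 had an unadjusted p under 0.05, against 9.68%. None of the 4 passed the adjusted threshold in the edgeR quasi-likelihood test, DESeq2's Wald test called 1 (PLK3), and edgeR's likelihood ratio and exact tests each called 2 (PLK1 and PLK3).

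**Figure D1:**
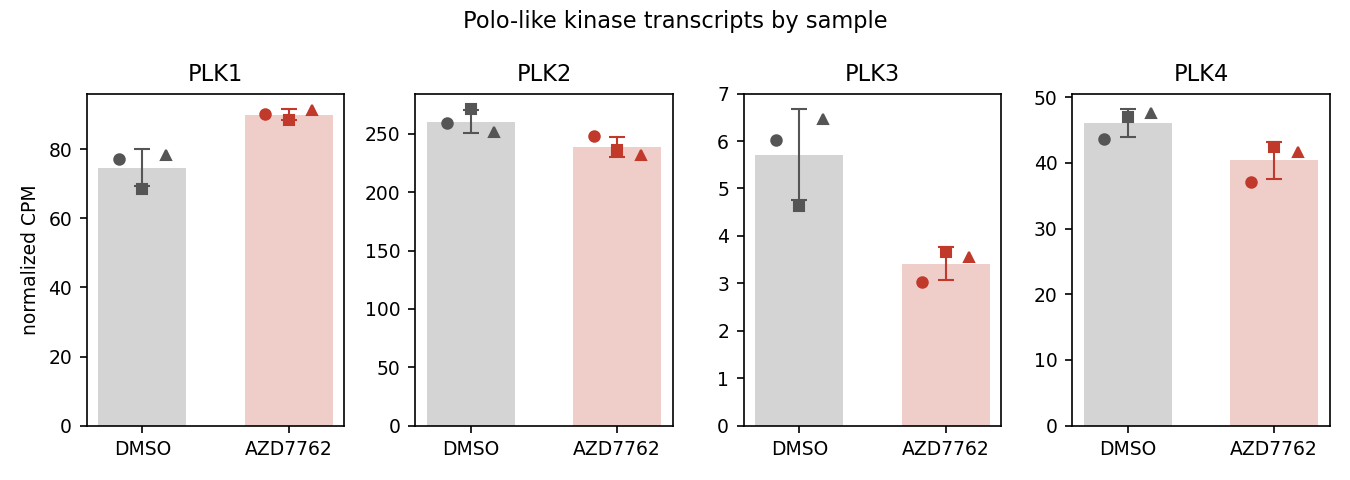
Normalised level of PLK1, PLK2, PLK3 and PLK4 in CPM (y axes starting at 0, a separate scale per gene) in the 3 DMSO and the 3 AZD7762 libraries, with points for samples and bars for the mean and SD. The AZD7762 points of PLK1 (88.3 to 91.4 CPM) sit above all DMSO points, and those of PLK2, PLK3 and PLK4 sit below.

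PLK1 (ENSG00000166851, chr16:23688977-23701688, plus strand, GRCh37) was at 77.1, 68.6 and 78.4 CPM in DMSO replicates 1 to 3. In the AZD7762 replicates it was at 90.3, 88.3 and 91.4 CPM. The AZD7762 libraries lay close together and above the highest DMSO library, and DMSO replicate 2 was the lowest of the 6. The group means were 74.7 ± 5.29 CPM with DMSO and 90.0 ± 1.55 CPM with AZD7762 (SD, n = 3 each), a log2 fold change of 0.27 (SE 0.0644, 95% confidence interval 0.13 to 0.41) or 1.21-fold. The adjusted p was 0.108 in the edgeR quasi-likelihood test with Benjamini-Hochberg adjustment, with an unadjusted p of 0.00118, the 194th smallest of all genes. A change of this size or more was seen in 13.2% of genes. It passed the threshold in 5 of 12 alternative settings. It passed in 0 of the 6 fits with 1 library left out. In those fits its adjusted p ran from 0.0574 to 0.482 in the edgeR quasi-likelihood test. The highest was without DMSO replicate 2, where its log2 fold change was 0.21.

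PLK4 (ENSG00000142731, chr4:128802048-128820379, plus strand) stood at 43.6, 46.9 and 47.5 CPM in the DMSO replicates. With AZD7762 it stood at 37.1, 42.3 and 41.6 CPM. The groups were separated by a narrow gap, between 43.6 CPM in the lowest DMSO library and 42.3 CPM in the highest AZD7762 library. The means were 46.0 ± 2.10 and 40.4 ± 2.83 CPM (SD, n = 3 each), a log2 fold change of -0.19 (SE 0.0719, interval -0.35 to -0.03). With an adjusted p of 0.407 in the edgeR quasi-likelihood test, PLK4 did not pass, and it passed in none of the 12 alternative settings, where the adjusted p ran from 0.0987 to 0.704.

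PLK2 (ENSG00000145632, chr5:57749809-57755966, minus strand) was the most abundant member, at 258.8, 271.0 and 251.3 CPM with DMSO. With AZD7762 the values were 248.3, 236.3 and 232.0 CPM. The lowest DMSO and the highest AZD7762 library were close, at 251.3 and 248.3 CPM, although the groups did not overlap. From 260.4 ± 9.93 to 238.9 ± 8.45 CPM (SD, n = 3 each), the log2 fold change of PLK2 was -0.12 (SE 0.0582), and its interval of -0.25 to 0.00232 included 0. The adjusted p was 0.524 in the edgeR quasi-likelihood test, and over the 12 alternative settings it ran from 0.169 to 0.840. At 4947 to 7646 counts per library, the counting error of PLK2 was 1.22% with DMSO and 1.36% with AZD7762, below its spread between replicates of 3.81% and 3.54%.

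PLK3 (ENSG00000173846, chr1:45266049-45271662, plus strand) was the least abundant member and had the largest fold change of the 4. Its level was 6.03, 4.63 and 6.47 CPM in the DMSO replicates. It was 3.02, 3.66 and 3.56 CPM in the AZD7762 replicates. All AZD7762 libraries lay below DMSO replicate 2, which was the lowest of its group as it was for PLK1. The mean was 5.71 ± 0.958 CPM with DMSO and 3.42 ± 0.344 CPM with AZD7762 (SD, n = 3 each), 0.599-fold, with a log2 fold change of -0.74 (SE 0.155, interval -1.08 to -0.40). Only 1.14% of genes had a larger change in either direction. The adjusted p in the edgeR quasi-likelihood test was 0.0558, just outside the threshold, and it ran from 0.000137 to 0.0778 over 12 alternative settings, of which 8 called PLK3. Without DMSO replicate 2 the log2 fold change was -0.88 and passed (adjusted p = 0.0177 in the same test), while without any other single library it did not, with adjusted p-values up to 0.396 without AZD7762 replicate 1 (edgeR fit).

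The depth behind PLK3 was thin. Its raw counts were 178, 126 and 135 with DMSO and 76, 77 and 76 with AZD7762, which left a counting error of 8.27% and 11.4% per library. The spread of PLK3 between replicates was 16.8% with DMSO and 10.1% with AZD7762, where the 500 genes nearest in level had median spreads of 10.1% and 10.9%. By the same measure PLK1 varied by 7.08% with DMSO and by 1.72% with AZD7762, against medians of 4.59% and 5.23%, so its AZD7762 replicates lay closer together than the median gene at that level. The counting error of PLK1 was 2.28% with DMSO and 2.22% with AZD7762. Its spread with AZD7762 was thus smaller than counting error alone would give on average. PLK4 varied by 4.56% and 7.00%, near the medians of 5.24% and 5.54%.

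Because reads can be lost unevenly by base composition, the exon GC content of the members was set beside these values. It was 60.1% for PLK3, 57.1% for PLK1, 42.4% for PLK2 and 37.7% for PLK4. Genes of at least 55% GC deviated by a median log2 value of -0.12 in DMSO replicate 2, the lowest of the 6 libraries. It was the DMSO library in which PLK1 and PLK3 were lowest. In AZD7762 replicates 1 to 3 the median was 0.08, -0.06 and 0.08. There PLK1 was lowest in replicate 2, but PLK3 was highest in it. Whether base composition set these levels was not tested. With per-library trends on GC content and length taken out, the log2 fold change was 0.23 for PLK1, -0.81 for PLK3, -0.09 for PLK2 and -0.14 for PLK4, the same directions in each case. PLK1 and PLK3 passed the adjusted threshold in that fit, at 0.0294 and 0.00978 in edgeR's quasi-likelihood test.

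**Figure D2:**
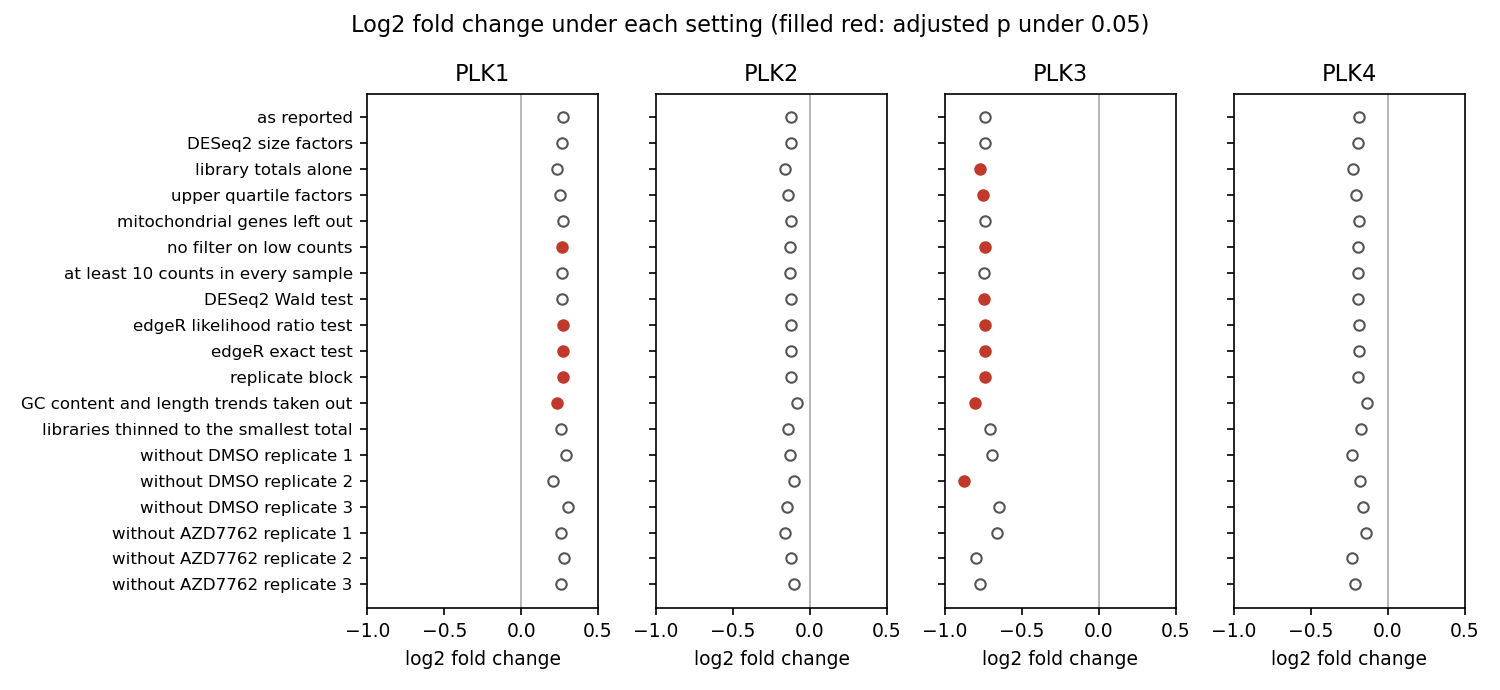
Log2 fold change of each member, AZD7762 against DMSO, under the reported setting, 12 alternative settings and each of 6 fits with 1 library left out, with symbols marking whether the adjusted p was under 0.05. PLK1 stays above 0 and PLK2, PLK3 and PLK4 below 0 throughout, with PLK3 between -0.88 and -0.65.

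Levels were then compared between the genes, which requires the length of each transcript. Per kilobase of annotated exon, PLK2 was at 56.0 ± 2.14 CPM per kb with DMSO and 51.4 ± 1.82 with AZD7762 (SD, n = 3 each here and below). PLK1 followed at 15.7 ± 1.11 and 18.9 ± 0.326 CPM per kb. PLK4 was at 10.3 ± 0.469 and 9.01 ± 0.631 CPM per kb. PLK3 was at 1.72 ± 0.288 and 1.03 ± 0.103 CPM per kb. The order PLK2, PLK1, PLK4, PLK3 held in all 6 libraries, and no neighbouring members overlapped: PLK1 did not go below 14.4 and PLK4 did not go above 10.6 CPM per kb. Using the canonical transcript in place of all exons gave DMSO levels of 93.5 for PLK2, 34.6 for PLK1, 12.0 for PLK4 and 2.44 CPM per kb for PLK3, in the same order. Among all genes tested, the DMSO level per kilobase of PLK2 lay at percentile 96.3, that of PLK1 at 81.6, that of PLK4 at 73.4 and that of PLK3 at 34.2.

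**Figure D3:**
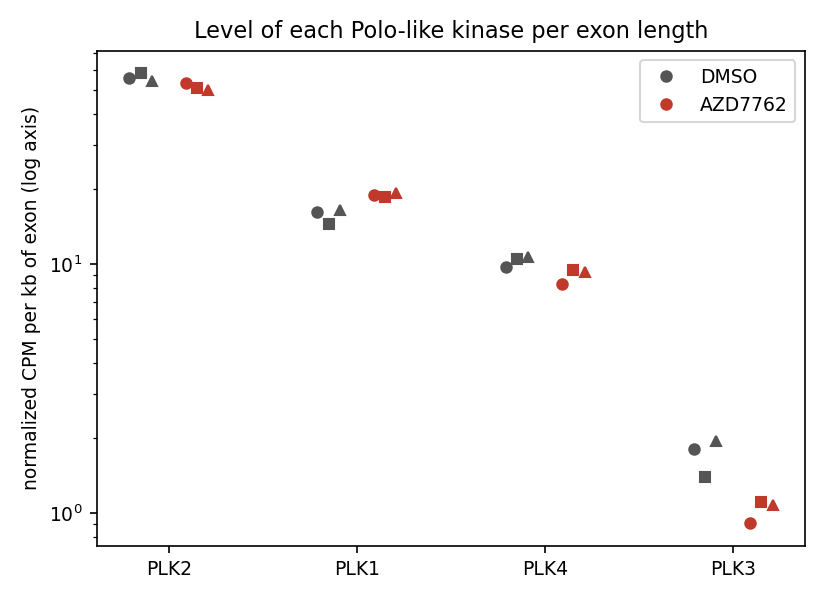
Level of each member in CPM per kb of exon (log axis) in the 3 DMSO and 3 AZD7762 libraries, with points for samples. The members form 4 separate bands in the order PLK2, PLK1, PLK4 and PLK3, with PLK2 between 49.9 and 58.3 and PLK3 between 0.908 and 1.94 CPM per kb.

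As a share of the family's summed level per kilobase, PLK2 made up 66.9 ± 1.93% with DMSO and 64.0 ± 1.37% with AZD7762. The share of PLK1 was 18.8 ± 1.49% with DMSO and 23.5 ± 0.534% with AZD7762. PLK4 held 12.3 ± 0.557% and 11.2 ± 0.926%. PLK3 held 2.05 ± 0.362% and 1.28 ± 0.144%. The transcript pool of the family in these β cells was thus mainly PLK2 in both groups, and PLK1 was the member with a larger mean share with AZD7762.

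The ratio of 2 members within a library is free of library scaling. It was used to set the mitotic members against each other and against the signal-responsive members. Trends on GC content and length are not removed by it. Their fitted log2 shifts, AZD7762 minus DMSO, were 0.04 for PLK1, -0.04 for PLK2, 0.06 for PLK3 and -0.05 for PLK4. The log2 ratio of PLK1 to PLK4 was 0.82, 0.55 and 0.72 in the DMSO replicates and 1.28, 1.06 and 1.13 in the AZD7762 replicates. Every AZD7762 library was above every DMSO library, and the means differed by 0.46. The log2 ratio of PLK2 to PLK1 was 1.75, 1.98 and 1.68 with DMSO and 1.46, 1.42 and 1.34 with AZD7762, lower in all 3 AZD7762 libraries by a mean of -0.40. The log2 ratio of PLK2 to PLK4 was 2.57, 2.53 and 2.40 against 2.74, 2.48 and 2.48, and here the groups overlapped. PLK1 over PLK3 had the widest difference, from 3.68, 3.89 and 3.60 with DMSO to 4.90, 4.59 and 4.68 with AZD7762, a mean difference of 1.00 on the log2 scale. PLK2 over PLK3 differed by 0.61 and PLK4 over PLK3 by 0.54, with no overlap between groups in either. PLK2 and PLK4, 1 signal-responsive and 1 mitotic, were the only pair whose groups overlapped. PLK1 was higher and PLK3 lower relative to both. The ratios reuse the same members, whose groups each already stood apart, so they are not independent results. How many of all gene pairs would have separate groups was not computed. These ratios were given as descriptions and no test was run on them.

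**Figure D4:**
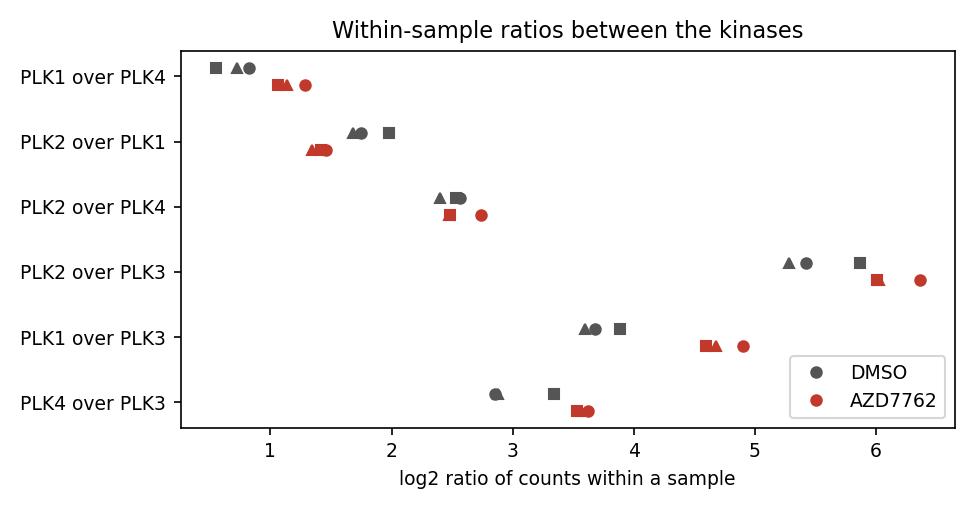
Within-library log2 ratios between pairs of members in the 3 DMSO and the 3 AZD7762 libraries, with points for samples and marker shapes for replicates 1 to 3. The groups overlap for PLK2 over PLK4, at 2.40 to 2.57 with DMSO and 2.48 to 2.74 with AZD7762. They are separate for the other pairs, which reuse the same members and are not independent.

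Genes that work with each member were examined as lists. Of 24 genes listed as activators of PLK1 and mitotic partners, 1 was called higher and 0 lower, against a background of 0.357% and 0.351%. The median log2 fold change was 0.09 beside 0.00756 over all genes, 16 of 24 were above 0 (52.4% of all genes), and 9 had groups that did not overlap (15.0% of all genes), all of them higher with AZD7762. The count of called genes was 2 or 3 in 5 alternative settings other than a replicate block, among them 2 by DESeq2 and 3 by edgeR's exact test. AURKA, the Aurora A kinase that activates PLK1, rose from 77.8 ± 4.10 to 100.4 ± 4.90 CPM (SD, n = 3 each), a log2 fold change of 0.37 (SE 0.0637) with an adjusted p of 0.0153 in the edgeR quasi-likelihood test. This call was lost when DMSO replicate 2 or AZD7762 replicate 2 was left out. KIF20A, a mitotic kinesin that PLK1 phosphorylates, had a log2 fold change of 0.32 (adjusted p = 0.0693 in the edgeR fit). BORA, the cofactor through which Aurora A reaches PLK1, was at -0.08 (adjusted p = 0.845 in the edgeR fit). PLK1 and AURKA thus both stood higher in all 3 AZD7762 libraries, while BORA did not share their direction.

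Of 23 genes listed for centriole duplication, 0 were called higher and 1 lower (0.357% and 0.351% of all genes), and 7 of 23 had a log2 fold change above 0 (52.4% of all genes), with a median of -0.06. With GC and length trends taken out, 2 were called. CEP44, a centriole protein, fell from 132.7 ± 1.97 to 107.3 ± 3.84 CPM (SD, n = 3 each), a log2 fold change of -0.31 (SE 0.0563, adjusted p = 0.0227 in the edgeR fit). The call was lost on leaving out DMSO replicate 1 or 2 or AZD7762 replicate 1 or 2. The partner that PLK4 phosphorylates to begin a new centriole, STIL, was at 29.2 ± 2.37 and 24.5 ± 1.77 CPM, with no overlap and a log2 fold change of -0.25 (adjusted p = 0.337 in the edgeR fit). CEP152, the scaffold that brings PLK4 to the centriole, was at a log2 fold change of -0.38 (adjusted p = 0.353 in the edgeR fit) and SASS6, the cartwheel protein, at -0.07. TUBG1, γ-tubulin, lay in the other direction at 0.23 (adjusted p = 0.130 in the edgeR fit). PLK4 was therefore below its DMSO level together with STIL, though neither passed the test.

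Among 11 binding partners and substrates of PLK2 and PLK3, 10 were tested and 0 were called by edgeR's quasi-likelihood test (0.708% of all genes), with 0 at an unadjusted p under 0.05 (9.68% of all genes) and 0 called by DESeq2 or edgeR's other tests. Their log2 fold changes ran from -0.17 to 0.16 with a median of 0.04. SIPA1L1, a postsynaptic protein that PLK2 marks for degradation, was at -0.12 (adjusted p = 0.587 in the edgeR fit), with no overlap between groups. CIB1, a calcium-binding partner of PLK3, was at 0.09. With so few genes, a count of 0 is what the share over all genes gives, and it says nothing particular about the partners of PLK2 and PLK3.

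**Figure D5:**
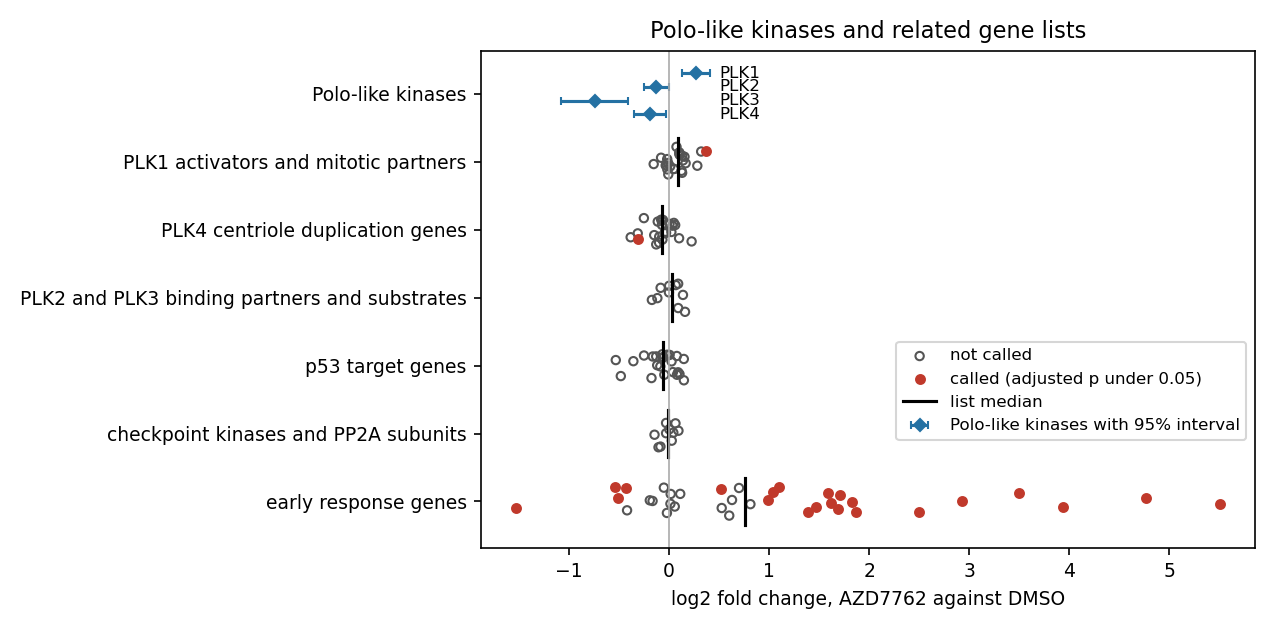
Log2 fold change, AZD7762 against DMSO, of every tested gene of 6 lists and of the 4 members (with 95% intervals), 1 point per gene, filled where the adjusted p was under 0.05. The early response genes spread from -1.52 to 5.50, while the other lists lie between -0.53 and 0.37.

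PLK2 and PLK3 were then set beside genes that, like them, are known as early response or p53 target genes. Of 39 early response genes, 36 were tested, and 18 were called higher and 4 lower (0.357% and 0.351% of all genes), with a median log2 fold change of 0.76. FOS, a transcription factor of the AP-1 family, rose from 11.0 ± 1.77 to 84.3 ± 4.62 CPM (SD, n = 3 each), a log2 fold change of 2.92 (adjusted p = 4.04e-09 in the edgeR fit). NR4A1 and NR4A2, nuclear receptors of the same early class, rose by 3.50 and 3.93 on the log2 scale, BTG2 by 2.50 and EGR1 by 1.04, with adjusted p-values from 4.04e-09 to 0.00151 in the edgeR fit. RHOB, KLF6, TRIB1 and JUN were called lower. PLK2 and PLK3, at -0.12 and -0.74, were not among the called genes and were on the opposite side from the majority of the list. The list was written with earlier results of these data known, so its count is a description.

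Of 24 p53 target genes, 23 were tested and 0 were called by edgeR's quasi-likelihood test (0.708% of all genes) or by its other tests or DESeq2. An unadjusted p under 0.05 was found for 1 (9.68% of all genes) and a log2 fold change above 0 for 9 of 23 (52.4% of all genes), with a median of -0.06, so these counts were near or below those over all genes. CDKN1A, the p21 cell cycle inhibitor, was at a log2 fold change of -0.12 (adjusted p = 0.685 in the edgeR fit) and MDM2, which degrades p53, at -0.06. TP53INP1 was at -0.16 and FAS, a death receptor at a low level of 0.914 CPM with DMSO and 0.644 CPM with AZD7762, at -0.53, with adjusted p-values of 0.408 and 0.573 in the edgeR fit. With a log2 fold change of -0.74, PLK3 lay below the whole range of this list, -0.53 to 0.15, and PLK2 within it.

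The 10 checkpoint kinases and PP2A subunits included the AZD7762 targets CHEK1 and CHEK2, and 0 were called by edgeR's quasi-likelihood test (0.708% of all genes), its other tests or DESeq2, with 0 at an unadjusted p under 0.05 (9.68% of all genes). CHEK1 was at a log2 fold change of -0.10 (adjusted p = 0.657 in the edgeR fit), CHEK2 at 0.04 (0.901) and PPP2R1A, the scaffold subunit of PP2A, at 0.10 (0.665). AZD7762 inhibits kinase activity, so the transcript levels of its targets are no check of its action.

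For each member, the genes whose profile over the 6 libraries was most alike were found by Pearson correlation of log2 CPM among 10949 genes (10950 for PLK3). With n = 6 libraries in 2 groups, such correlations share the difference between groups and are only a description. Among those most like PLK1 were LRATD1 (r = 0.985) and CNPPD1 (0.983). Those most like PLK2 were NINJ2-AS1 (0.995), TSR1 (0.990) and LRRC8D (0.982). Those most like PLK3 were RIPK4 (0.998), SLC22A15 (0.998) and RFX6 (0.991), the last an islet transcription factor. Those most like PLK4 were ZNF569 (0.995), ZNF782 (0.995) and the antisense transcript OIP5-AS1 (0.991). No gene was named for more than 1 member, and r was above 0.95 for 55 genes with PLK1, 16 with PLK2, 56 with PLK3 and 55 with PLK4.

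Genes on the opposite strand overlapped 12.8% of the exon length of PLK1 and 2.95% of that of PLK3, and none of that of PLK2 or PLK4. Whether counting used the strand was not given in the sources used here. The overlapping genes themselves had 0 or 1 count in every library. Raw counts were 1635 to 2277 per library for PLK1 and 76 to 178 for PLK3.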

How the data were processed

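Raw read counts per gene were deposited, 1 table per library, and were used as the authors counted them with HTSeq-count. Per the labels and the study's methods, reads had been trimmed with cutadapt 1.18, checked with FastQC 0.10.1 and mapped to GRCh37. The aligner, the annotation release and the strand setting were not given in the sources used here. The tables held gene identifiers only, with no summary rows.

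Counts were scaled by TMM, filtered with filterByExpr and tested with edgeR 4.0.16 (R 4.3.3, quasi-likelihood test, Benjamini-Hochberg over all 17649 genes, threshold 0.05). CPM are counts per 1000000 of scaled library size, except for the floor and the cell type markers, which used library totals without scaling factors. Log2 CPM used a prior count of 2, and the common biological coefficient of variation was 7.15%. DESeq2 1.42.0 served as an alternative. Exon lengths, GC content and positions came from a GRCh37 gene annotation, to which 58646 identifiers (96.7%) matched, and promoters from RefSeq (GRCh38.p14), in which all 4 genes were found. The scripts were tested on simulated data.

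The members and the gene lists were chosen with earlier results of these data known. Genes named were the members, up to 4 called genes per list with the smallest p (the 2 with the smallest p where fewer were called), a fixed set that included CHEK1, CHEK2, AURKA, BORA, STIL, SASS6, CEP152, CIB1, SIPA1L1, CDKN1A, MDM2, FOS and EGR1, and the 3 genes most alike each member among tested genes whose mean log2 CPM reached 3. The lists covered PLK1 partners, centriole genes, PLK2 and PLK3 partners, early response genes, p53 targets, and checkpoint kinases with PP2A subunits. RHOB, KLF6, TRIB1 and JUN were named after their values were seen. No correction was made for replicate number, since the labels give no shared source. Some genes that this rule names are not reported here. The intervals cover the spread between libraries.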

Additional observations from a re-analysis of the deposited data

How the results depend on the processing

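No direction of PLK1, PLK2, PLK3 or PLK4 was reversed in 12 alternative settings or 6 fits with 1 library left out, and PLK2 and PLK4 were not called in any of them. Without a filter on low counts, 330 genes were called instead of 125, with 267 by the likelihood ratio test, 254 by the exact test and 213 with GC and length trends taken out. PLK1 passed the threshold at log2 fold changes of 0.27 in the first 3 of these and 0.23 in the last. PLK3 passed at -0.74 in the first 3, -0.81 in the last, -0.74 in DESeq2's Wald test, -0.78 with library totals alone and -0.76 with upper quartile factors. The causes were not tested. Leaving out 1 library gave 77 (without AZD7762 replicate 1) to 168 genes (without DMSO replicate 3), and log2 fold changes of 0.21 to 0.31 for PLK1, -0.16 to -0.10 for PLK2, -0.88 to -0.65 for PLK3 and -0.23 to -0.14 for PLK4. With the canonical transcript length, chosen after seeing the data, the DMSO levels per kilobase were 34.6 for PLK1, 93.5 for PLK2, 2.44 for PLK3 and 12.0 for PLK4. Depth limits PLK3 most.

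Same-numbered libraries correlated at 0.0533, 0.124 and 0.210 in their deviations, and not every library correlated best with its own number, so the numbers were not taken to pair the libraries. A replicate block in the model called 378 genes, with PLK1 at 0.27 and PLK3 at -0.74 past the threshold, 3 of the PLK1 partners and 2 of the centriole genes.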
